A study of Mus musculus with 4 samples.

Results

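Mouse chromosome 14 was profiled in 4 liver samples by array comparative genomic hybridisation. The method mixes sample DNA and reference DNA labelled in different colours on the same array of probes. Per the labels' protocols, DNA came from FFPE (formalin-fixed, paraffin-embedded) sections. All probes that the array design placed on chromosome 14 of build mm9 were taken, other than the 132 between 52 and 56 Mb, which leaves 2025 of 2157 chromosome 14 probes and of 52385 on the 19 autosomes. Each of the 2025 gave a value on all 4 arrays. Of these, 923 lie proximal and 1102 distal to the left-out stretch, from position 6079654 to 125091905, with a median spacing of 20.1 kb. The 4 samples carry 1 genotype, TAK1LPC-KO_RIP3-_-, so that both the TAK1 change, labelled LPC-KO (liver parenchymal cells in the series title), and the RIP3 change are shared by every sample, and there is no second genotype. The labels give no age, sex, strain, Cre driver or treatment and do not say whether the samples come from separate animals, so that the p-values reflect the spread between 4 samples, and this spread may be technical. Sample DNA (Cy5) was compared on each array with the same Cy3 pool of 4 normal livers. Since no other control was hybridised, ratios were tested against 0, a test that does not see how normal livers vary. Dyes were not swapped, and any dye bias of a probe remains in its value.

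Array hybridisation reads DNA dosage: a probe in a gained segment binds more sample DNA than pool DNA, and a probe in a lost segment binds less. A whole chromosome is gained or lost when it missegregates in mitosis, and liver is known for polyploid hepatocytes and for aneuploid liver tumours. Chromosome 14 of the mouse carries Ripk3, which encodes the necroptosis kinase RIP3, and Rb1, which encodes the retinoblastoma protein that restrains entry into the cell cycle. It also carries liver enzyme genes, the granzyme and mast cell protease cluster, the ribonuclease A family and a group of olfactory receptor genes. An extra copy of a diploid chromosome in every cell would give a log2 ratio of 0.58 (3 copies over 2). In DNA from a mixture of cells, a change in few cells and a smaller shift in all cells cannot be told apart.

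The probes with the highest and lowest ratios show how far single probes lie from the chromosome as a whole. They were taken from the 1634 chromosome 14 probes that were well above background in both channels on all 4 arrays, the 4 highest first and then the 4 lowest, followed by the probe pair of Ripk3. Sequences are those of the array files, with G and C in capitals, and positions are on mm9. The files do not give the strand.
ENSMUST00000140320, chr14:100631911-100631970: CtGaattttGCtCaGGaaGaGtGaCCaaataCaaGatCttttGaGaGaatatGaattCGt
Ttc5, chr14:51404107-51404166: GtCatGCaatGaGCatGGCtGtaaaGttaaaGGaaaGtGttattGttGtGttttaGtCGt
Gcap14, chr14:37726023-37726082: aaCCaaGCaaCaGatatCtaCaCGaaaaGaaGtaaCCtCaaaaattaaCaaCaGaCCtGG
Mat1a, chr14:41937550-41937609: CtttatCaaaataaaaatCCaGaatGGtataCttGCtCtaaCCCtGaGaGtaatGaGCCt
Clu, chr14:66600129-66600188: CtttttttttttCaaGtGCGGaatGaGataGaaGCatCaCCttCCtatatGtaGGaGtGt
AF117951, chr14:70232736-70232795: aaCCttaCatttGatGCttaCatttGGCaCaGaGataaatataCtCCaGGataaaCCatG
Klhl1, chr14:96641677-96641735: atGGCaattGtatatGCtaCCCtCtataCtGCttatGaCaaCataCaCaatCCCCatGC
Gm5089, chr14:122850012-122850071: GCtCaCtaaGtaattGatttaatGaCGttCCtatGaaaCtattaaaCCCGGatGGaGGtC
Ripk3, chr14:56403814-56403872: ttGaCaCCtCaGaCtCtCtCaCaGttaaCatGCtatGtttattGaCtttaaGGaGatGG
Ripk3, chr14:56405441-56405496: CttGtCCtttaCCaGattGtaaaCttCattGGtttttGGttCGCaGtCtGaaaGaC
GC content of the 4 highest probes was 35% to 36.7% and that of the 4 lowest 35% to 40.7%, against a mean of 36.2% over all 2025 probes. Whether a probe lies in an exon or an intron on mm9 was not used here.

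Chromosome 14 as a whole lay slightly above the pool in every sample. Its median log2 ratio, with the autosomal median of each array set to 0, was 0.12, 0.13, 0.11 and 0.13 on replicates 1 to 4. The mean was 0.122 ± 0.0078 (SD, n = 4), a linear ratio of 1.09, and it differed from 0 (limma, adjusted p = 1.51e-07 over the 19 autosomes). It was 1 of 6 autosomes called higher (31.6% of 19), and all others but chromosomes 5, 6 and 9 were called lower. A call alone thus does not set it apart. On each of the 4 arrays it ranked 3 among the 19, below chromosomes 13 and 8 and above chromosome 4. Against the other autosomes the difference was 0.127 ± 0.0082 (limma, adjusted p = 1.11e-07). There too 31.6% of the autosomes were called higher than the rest, and all others but chromosomes 5, 6 and 9 lower. The exact sign-flip permutation test gave its smallest two-sided p for 4 arrays, 0.125.

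**Figure D1:**
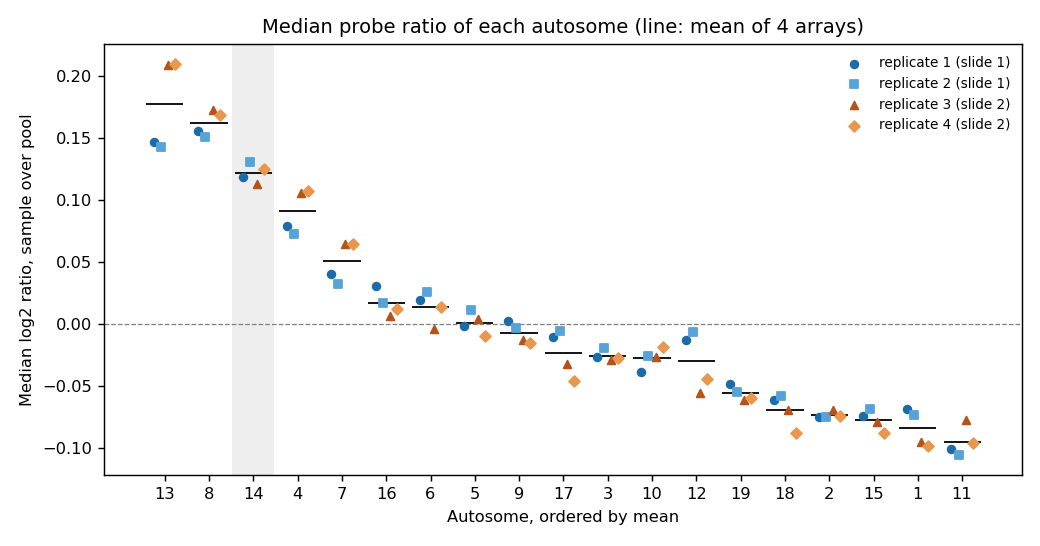
Median log2 ratio, sample over pool, of the probes of each autosome (y axis), with autosomes ordered by their mean (x axis). Points are the 4 replicates, lines their mean, and chromosome 14 is shaded: its 4 arrays lie between 0.11 and 0.13, and it ranks 3 of 19.

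The chromosomes next to it in this order differed from it by little, and each of these differences was larger than the spread between arrays. Chromosome 14 lay 0.03 ± 0.02 (SD, n = 4) above chromosome 4 (limma, adjusted p = 0.00072 over 18 differences) and 0.04 ± 0.02 below chromosome 8 (limma, adjusted p = 1.34e-05). Against chromosome 4 the differences were 0.04 and 0.06 on replicates 1 and 2 (slide 1) and 0.0071 and 0.02 on replicates 3 and 4 (slide 2), and against chromosome 8 they were -0.04, -0.02, -0.06 and -0.04. It lay 0.06 ± 0.04 below chromosome 13 (limma, adjusted p = 1.66e-06), with differences of -0.03 and -0.01 on slide 1 and -0.10 and -0.08 on slide 2. Limma pooled the spread over the 18 differences, which all share the chromosome 14 values. The exact sign-flip permutation test gave 0.125 for each of the 3, its smallest two-sided p for 4 arrays. In all 3 comparisons chromosome 14 was the lower relative to the other chromosome on slide 2. Chromosome 14 itself gave 0.12 within each slide, while chromosome 13 gave 0.15 and 0.14 on slide 1 and 0.21 on both arrays of slide 2. Slide and sample cannot be told apart.

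Facts of the whole series bear on these values as follows. On the 4 arrays 84.7% to 90.6% of the chromosome 14 probes stood well above background for the sample and 94.1% to 97.7% for the pool. None was saturated. Of the 2025 probes, 132 were never well above background for the sample and 38 never for the pool. Over the 2025 probes the arrays correlated at 0.65 and 0.61 within the slides and at 0.55 to 0.57 between slides, which describes probes of shared libraries and is no test. The number of arrays limits the precision. Map3k7, the TAK1 gene on chromosome 4, lay above the pool in the samples labelled knockout, at 0.47, 0.68, 0.77 and 0.68 over its 2 probes (mean 0.65 ± 0.13, limma, adjusted p = 0.00191). Chromosome 4 itself lay at 0.09, and 16.1% of all autosomal genes were called higher. The sources used here do not say whether a probe lies in a deleted part of Map3k7, and the value does not check the label.

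The difference was spread over the probes as a whole. At the 5th, 10th, 25th, 50th, 75th, 90th and 95th percentiles of the probe ratios, chromosome 14 lay above the other autosomes by 0.13, 0.14, 0.14, 0.13, 0.13, 0.12 and 0.12 (means of 4 arrays). Each of these was above 0 on every array, and the SDs ran from 0.0076 to 0.02. At the 1st and 99th percentiles, where few probes count, the differences were 0.09 ± 0.07 and 0.11 ± 0.07, and replicate 1 lay at -0.0018 at the 1st. The spread of single probes was about the same on chromosome 14, with an SD of 0.43 to 0.49 by array, as on the other autosomes, with 0.46 to 0.49.

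**Figure D2:**
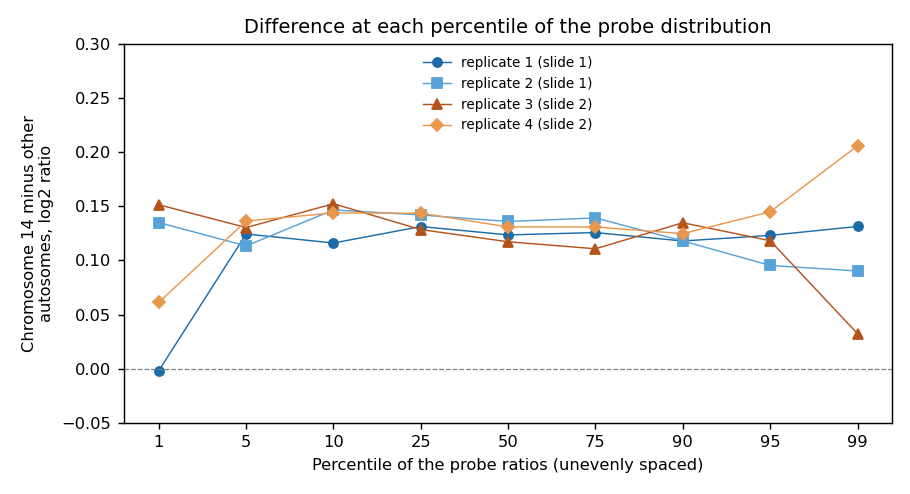
Difference between chromosome 14 and the other autosomes in the log2 ratio (y axis) at 9 percentiles of the probe ratios (x axis, not to scale), 1 line per replicate. From the 5th to the 95th percentile the means lie between 0.12 and 0.14, and the replicates part at the ends.

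The offset was then described by class of probe. The classes divide the same 2025 probes and are no separate support for it. Within 5 classes of probe GC content, chromosome 14 exceeded the other autosomes by 0.11 to 0.28, on 4 of 4 arrays in each class. The largest of these, 0.28 ± 0.04, came from the 23 probes with over 45% GC. The level itself differed by GC on chromosome 14, from 0.20 ± 0.06 in the 102 probes of up to 30% GC to -0.03 ± 0.03 in the 115 probes of 40 to 45%, and was -0.0091 ± 0.02 in the 23 probes above 45%. In 4 classes of pool signal with equal numbers of autosomal probes, from dim to bright, the difference was 0.09 ± 0.02, 0.12 ± 0.02, 0.13 ± 0.0079 and 0.15 ± 0.02. The 1606 probes with a gene name gave 0.13 ± 0.0080 and the 419 without one 0.11 ± 0.0097.

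**Figure D3:**
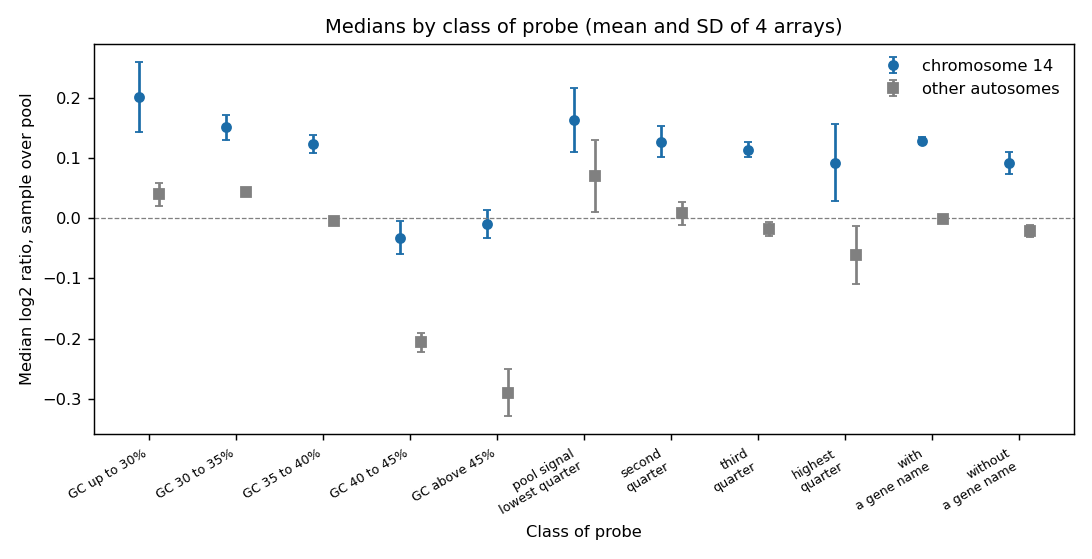
Median log2 ratio, sample over pool (y axis), of chromosome 14 and of the other autosomes by class of probe (x axis): 5 GC classes, 4 classes of pool signal, and probes with or without a gene name. Points are means of 4 arrays, bars their SD, and chromosome 14 is above the other autosomes in each class, by 0.09 to 0.28.

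Proximal and distal parts of the chromosome were compared first along its length. The median was 0.126 ± 0.0084 proximal to the left-out stretch and 0.119 ± 0.0096 distal to it. The distal part was lower by 0.0065 ± 0.01 (SD, n = 4), with 2 arrays of each sign, a difference smaller than its spread. The exact sign-flip permutation test gave a two-sided p of 0.50, and with 4 arrays it could not have passed 0.05. The left-out stretch itself had a median of -0.02 ± 0.08, with replicates at -0.03, -0.08, -0.07 and 0.09.

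In windows of 5 Mb with at least 20 probes, 22 of 23 on chromosome 14 were higher than the pool and 0 lower, against 36.3% higher and 24.9% lower over the 490 autosomal windows (limma, adjusted p under 0.05). The unadjusted p was under 0.05 in the same number, 22. The other, from 5 to 10 Mb, lay at 0.04, -0.05, 0.16 and 0.08 (mean 0.06 ± 0.09, adjusted p = 0.0804), and without replicate 2 it rose to 0.09 and passed (limma, adjusted p = 0.0116). The highest windows were 110 to 115 Mb at 0.22 ± 0.05, 40 to 45 Mb at 0.21 ± 0.10 and 15 to 20 Mb at 0.18 ± 0.04. The other low windows were 70 to 75 Mb at 0.06 ± 0.02 and 50 to 55 Mb at 0.08 ± 0.04, the latter with probes only up to 52 Mb. Without replicate 4 both of these missed the threshold, at 0.05 and 0.06 (limma, adjusted p = 0.0525 and 0.051). With arrays centred on the mode, 18 of the 23 windows were called, and these fell to 0.03 and 0.05 and missed it as well (limma, adjusted p = 0.228 and 0.113).

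Set against the chromosome's own median, 4 of the 23 windows passed, 3 above and 1 below it, while 55.7% of all autosomal windows differed from the median of their own chromosome (limma, adjusted p under 0.05). The SD of the 23 window deviations was 0.04, the lowest of the 19 autosomes, where the others ran from 0.06 to 0.12. The 4 windows were 110 to 115 Mb (0.10 above, limma, adjusted p = 0.0017), 40 to 45 Mb (0.09 above, 0.0142), 15 to 20 Mb (0.06 above, 0.024) and 70 to 75 Mb (lower, at -0.06, 0.0148). Without replicate 2 the count was 2, and without replicate 4 it was 7. The window from 40 Mb missed the threshold without replicate 2, at 0.06 (limma, adjusted p = 0.0941), and the one from 15 Mb without replicate 1 or 3, at 0.04 and 0.07 (adjusted p = 0.135 and 0.0523). The window from 70 Mb missed it without replicate 2 or 3, at -0.05 both times (limma, adjusted p = 0.054 and 0.0583). After a fit on nearby probe number or on probe GC it lay at -0.02 (limma, adjusted p = 0.38 and 0.485). The windows from 40 and 15 Mb missed the threshold after either fit as well. The window from 110 Mb is poor in genes, with 9.09% of its 22 probes named. It kept its call when any 1 replicate was left out, and after a fit on the number of probes nearby it lay 0.04 above (adjusted p = 0.154).

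**Figure D4:**
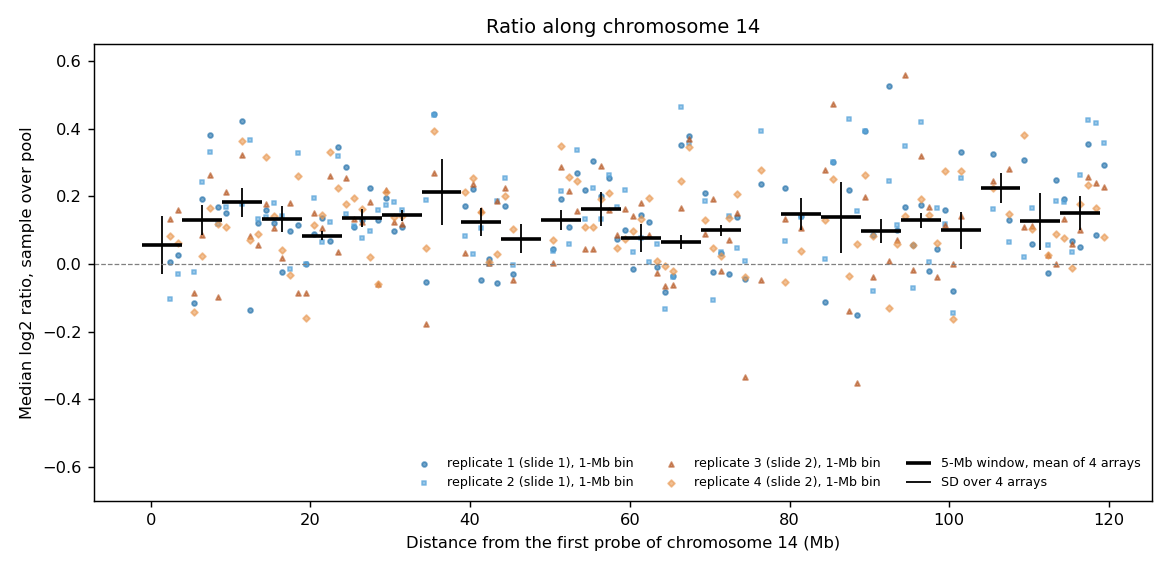
Median log2 ratio, sample over pool (y axis), by distance from the first chromosome 14 probe in Mb (x axis). Points are 1-Mb bins of at least 5 probes in each of the 4 replicates, thick lines 5-Mb windows (mean of 4 arrays) with their SD, and the gap is the left-out stretch: all 23 window means lie above 0, from 0.06 to 0.22.

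Finer windows showed a low and a high neighbour near Rb1, picked after their values were seen and not refitted under other settings. In 2-Mb windows with at least 10 probes, 38 of 48 were higher than the pool and 0 lower (32.3% of 1117 higher), and 16 differed from the chromosome median (45% of 1117). From 72 to 74 Mb the 4 arrays gave 0.37, 0.36, 0.34 and 0.33 over 32 probes (mean 0.35 ± 0.02, limma, adjusted p = 3.14e-05), which was 0.23 above the chromosome median (adjusted p = 0.000337). From 70 to 72 Mb they gave -0.08, -0.12, -0.06 and -0.0093 over 72 probes (mean -0.07 ± 0.04, adjusted p = 0.053), lower than the chromosome median at -0.19 (limma, adjusted p = 0.00106). The neighbouring windows did not overlap on any array, and together they make up most of the low 5-Mb window from 70 Mb. Of the 2-Mb windows only 16 to 18 Mb was as high, at 0.35 ± 0.13. In bins of 1 Mb with at least 5 probes, 85 of 92 had a mean above 0, 57 were above 0 on all 4 arrays and 4 were below 0 on all 4. Such bins were not counted on the other autosomes, so these counts describe chromosome 14 without a share to set beside them.

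Single probes were far more scattered than the chromosome median. Of the 2025 probes, 544 (26.9%) were called higher, against 18.2% of all autosomal probes, and 216 (10.7%) lower, against 18.8%. A call means a limma adjusted p under 0.05 over 52253 autosomal probes and a mean log2 ratio at least 0.25 from 0. Among the 1634 probes well above background throughout, 31.4% were higher and 9.55% lower, and among the 391 others 7.93% and 15.3%. These shares were not taken over all autosomes, and the 18.2% and 18.8% above include dim probes. The offset of the chromosome, 0.12, is below the size limit, and a call therefore rests on the probe's own departure besides it.

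The probe in ENSMUST00000140320, a transcript the files give no symbol for, was the highest, at 2.22, 1.89, 1.46 and 1.77 (mean 1.83 ± 0.31, limma, adjusted p = 0.000637). The high probe of Ttc5, which encodes a tetratricopeptide repeat cofactor of the stress response, gave 1.84, 1.64, 1.97 and 1.53. The other Ttc5 probe, at chr14:51387237-51387296, lay far below the pool, at -0.77, -0.95, -1.23 and -1.10. Probes of 1 gene thus stood on opposite sides of the pool, at 1.74 ± 0.20 and -1.01 ± 0.20, each beyond the spread between arrays. The Gcap14 probe lay at 1.64 ± 0.13, whereas the gene's mean over 13 probes was 0.29 ± 0.06. The upper Mat1a probe lay at 1.37 ± 0.18 and the other Mat1a probe at 0.45 ± 0.36. The probes were picked as the highest, so others of their genes had to be lower.

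Among the lowest probes, AF117951, a gene with 1 probe, gave -1.16, -1.37, -1.16 and -1.35 (limma, adjusted p = 0.000584). The Klhl1 probe, from a gene for an actin-binding protein of neurons, lay at -1.21 ± 0.14, and the mean of its 8 probes was -0.14 ± 0.13. The Gm5089 probe lay at -1.20 ± 0.29.

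Clu, which encodes the secreted chaperone clusterin, had the lowest of the bright probes, and its values split by slide. The probe at chr14:66600129-66600188 gave -2.73 and -3.00 on replicates 1 and 2 and 0.14 and -0.13 on replicates 3 and 4 (mean -1.43 ± 1.67, limma, adjusted p = 0.0799). The other Clu probe, at chr14:66588380-66588439, split the same way: slide 1 gave -0.52 and -0.64, slide 2 gave 0.82 and 0.87. Neither probe was below background on any array. Without replicate 3 the lower probe passed the threshold at -1.96 (adjusted p = 0.0413), and with probes well above background alone the mean of -1.45 passed (adjusted p = 0.0188). With slide as a term, an analysis added after the values were seen, the Clu mean differed between slides by 2.15. This had the smallest unadjusted p of the 705 chromosome 14 genes (limma, 1.14e-05) and did not pass after adjustment over 20416 genes (adjusted p = 0.222). In the same fit run on probes, 0 of the 2025 passed the adjusted threshold and 204 had an unadjusted p under 0.05 (limma). Of all 52253 autosomal probes 0 passed and 5162 had an unadjusted p under 0.05, about the same share as on chromosome 14. Slide and sample cannot be told apart here either.

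Gene means carried the same offset. The files name 705 genes in the 2025 probes, and a gene's value is the mean of its probes. Their median was 0.12, against -0.01 over all 20416 autosomal genes. Of the 705, 190 (27.0%) were called higher, against 16.1% of all genes, and 60 (8.51%) lower, against 19.2%. With at least 3 probes, 45 of 182 genes were higher and 5 lower, against 12.6% and 12.3% of the 4678 autosomal genes of that kind. Genes are not independent replicates, since neighbours share a segment.

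Ripk3, the targeted gene on this chromosome, showed no call. Its probe pair, at chr14:56403814-56405496, gave gene means of -0.0019, -0.04, -0.12 and -0.14 (mean -0.08 ± 0.06, limma, adjusted p = 0.371), and the single probes lay at -0.03 ± 0.06 and -0.12 ± 0.08. The 51 probes within 0.5 Mb on either side had a median of 0.06 ± 0.05. Of the 41 genes named there 9 were higher and 8 lower. The shares were 27.0% and 8.51% over the 705 chromosome 14 genes, and 16.1% and 19.2% over all autosomal genes. After correction for the GC content of the surroundings Ripk3 turned to 0.05 (adjusted p = 0.557). The sources used here do not say which part of Ripk3 was deleted or whether a probe lies in it, and the value does not check the label.

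Rb1 lay above the pool on every array, at 0.49, 0.29, 1.23 and 0.54 over 3 probes at chr14:73616549-73639797 (mean 0.63 ± 0.41, limma, adjusted p = 0.0177). Replicate 3 stood highest on each of the 3 probes, by most on 1 at 1.97, which was dim in each channel on 3 of 4 arrays. On the other probes it gave 0.76 and 0.95. Without replicate 3 the mean was 0.44 (limma, adjusted p = 0.0202). With bright probes alone the mean over all arrays was 0.62 (limma, adjusted p = 0.000769). These bright probes gave 0.50 ± 0.21 and 0.77 ± 0.20. Its surroundings within 0.5 Mb were high and tight, with medians of 0.33, 0.35, 0.36 and 0.37 over 20 probes (mean 0.35 ± 0.01). Of 8 named genes there 5 were higher and 0 lower, against 27.0% and 8.51% of the 705 chromosome 14 genes. Rcbtb2, its neighbour, which encodes a protein with RCC1 repeats and a BTB domain, gave 0.84, 0.76, 0.60 and 0.77, with all 3 probes above 0 (mean 0.74 ± 0.10, adjusted p = 0.00122).

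Of the other high genes with at least 3 probes, ENSMUST00000140320 had the highest mean, at 1.11, 1.05, 1.00 and 1.08, with probe means from 0.20 to 1.83. Kpna3, which encodes an importin alpha, gave 0.51, 0.89, 0.51 and 0.68, and Lmo7, a LIM-domain protein gene, 0.53, 0.56, 0.43 and 0.62. The rule that picked these genes required 1 sign on all arrays. Their probe means were all above 0 as well, although 1 of 4 Lmo7 probes was dim in both channels throughout. Only 1 of 3 Kpna3 probes was bright on all arrays. Adk, the adenosine kinase gene, gave 0.30, 0.56, 0.65 and 0.54, but its 4 probes ran from -0.35 to 1.14. Msra, which encodes a methionine sulfoxide reductase, gave 0.47, 0.53, 0.31 and 0.63 with probe means from -0.29 to 1.56. The probe at 1.56 was dim in both channels on all 4 arrays, and with bright probes alone Msra lay at 0.29 (limma, adjusted p = 0.00905). The gene named 6720456H20Rik gave 0.10, 0.31, 0.59 and 1.08 (mean 0.52 ± 0.42, limma, adjusted p = 0.037). It missed the threshold without replicates 2, 3 and 4, at 0.59, 0.49 and 0.33 (adjusted p = 0.0611, 0.104 and 0.0732).

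Only 5 genes with at least 3 probes met the rule for the low end. Itih1, which encodes a heavy chain of the inter-alpha-trypsin inhibitors that the liver secretes, gave -0.54, -0.57, -0.62 and -0.42, with all 3 probes below 0 (limma, adjusted p = 0.00236). Tep1, a telomerase-associated protein gene, gave -0.44, -0.32, -0.24 and -0.51 over 5 probes, all below 0. ENSMUST00000159360 gave -0.59, -0.37, -0.50 and -0.48. These genes lay below the pool although the chromosome lay above it. The other members of this group held less firmly. Exoc5, an exocyst gene with none of its 3 probes bright on all arrays, gave -0.67, -0.92, -0.07 and -0.20 (adjusted p = 0.0438) and missed the threshold without replicates 1, 2 and 4, at -0.40, -0.31 and -0.55 (limma, adjusted p = 0.137, 0.124 and 0.0544). Gm5089 gave -0.94, -0.22, -0.40 and -0.19 (adjusted p = 0.0381), with 2 of 3 probes dim in the samples. With bright probes alone Gm5089 lay at -1.22 (limma, adjusted p = 0.000145). It missed the threshold without replicates 1, 2 and 3, at -0.27, -0.51 and -0.45 (limma, adjusted p = 0.0617, 0.0557 and 0.09).

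**Figure D5:**
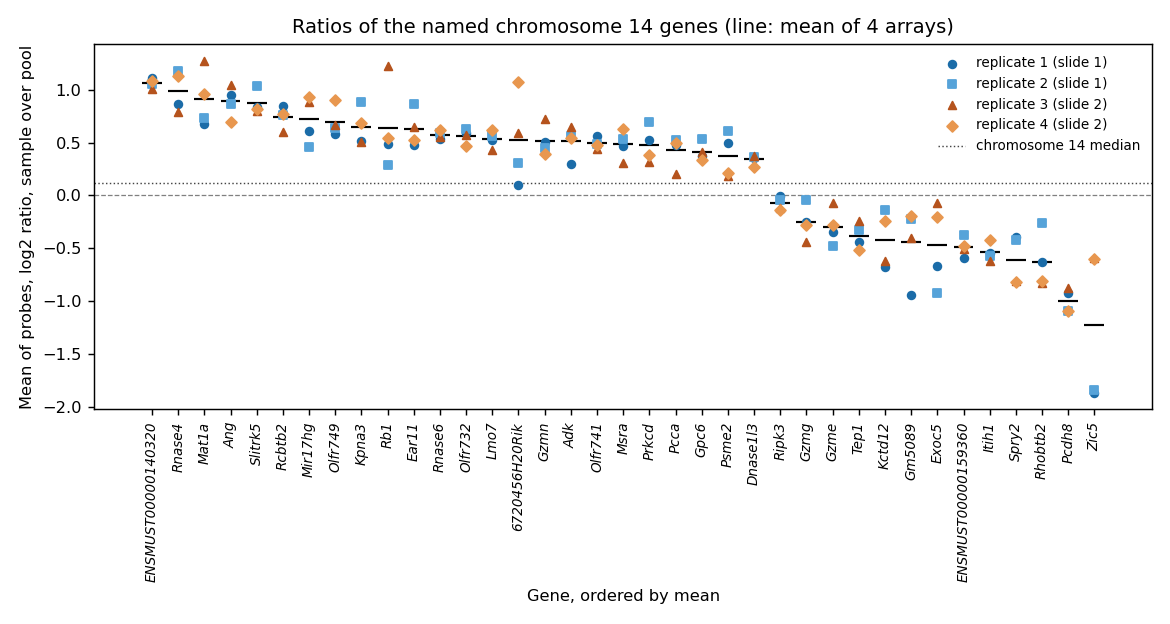
Mean log2 ratio, sample over pool (y axis), of each named chromosome 14 gene (x axis, ordered by mean). Points are the 4 replicates, short lines their mean, and the dotted line is the chromosome 14 median of 0.12: called genes lie from 1.06 (ENSMUST00000140320) down to -1.22 (Zic5, not well above background in the samples), and Ripk3 is at -0.08.

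Genes of known liver function went both ways. Of 30 such genes, all of them measured, 11 (36.7%) were higher and 4 (13.3%) lower, against 27.0% and 8.51% of the 705 chromosome 14 genes. Their median was 0.11, against 0.12 for the 705, and rose to 0.17 without replicate 1 or 2. Mat1a, the liver enzyme that makes S-adenosylmethionine, gave 0.68, 0.73, 1.27 and 0.96 (mean 0.91 ± 0.27, limma, adjusted p = 0.00222). Rnase4 and Ang, secreted ribonucleases, lay at 0.99 ± 0.19 and 0.89 ± 0.15, each over 1 probe. Bmp1 and Slc39a14 were also among the 4 lower, beside Itih1 and Ghitm.

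The 16 measured genes of cell death had 4 (25%) higher and 1 (6.25%) lower, close to the shares of the 705 genes, with a median of 0.15. Without replicate 2 there were 2 higher and 0 lower, and without replicates 1 and 4 in turn 3 higher and 0 lower. Prkcd, a protein kinase C that takes part in apoptosis, gave 0.52, 0.70, 0.32 and 0.38. Dnase1l3, which encodes a secreted DNase, gave 0.36, 0.36, 0.37 and 0.27. Psme2, a subunit of the proteasome activator, gave 0.49, 0.61, 0.18 and 0.21 over 1 probe (limma, adjusted p = 0.0198). It missed the threshold without replicate 1 or 2, at 0.34 and 0.30 (adjusted p = 0.0709 and 0.0669).

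Of 20 measured tumour suppressor genes 6 (30%) were higher, near the share of the 705 genes, and 3 (15%) lower, with a median of 0.15. Without replicate 4 there were 4 higher and the median was 0.09. Rb1 and Prkcd, described above, are among the higher ones. Rhobtb2, an adaptor gene of the CUL3 ubiquitin ligase, gave -0.63, -0.26, -0.82 and -0.81 and fell short of the threshold at -0.24 when its dim probe was left out (limma, adjusted p = 0.0827). Spry2, an inhibitor of receptor tyrosine kinase signals, had 1 probe, at -0.39 and -0.42 on slide 1 and at -0.81 on both arrays of slide 2 (limma, adjusted p = 0.00514).

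Growth signal genes and oncogenes had 5 (22.7%) higher and 1 (4.55%) lower of 22, with a median of 0.13. The median was 0.08 without replicate 2, and with slide means as 2 samples 2 were higher. Both shares are below the 27.0% and 8.51% of the 705 genes. Mir17hg, the host gene of the miR-17-92 cluster, gave 0.61, 0.46, 0.89 and 0.93 over 1 probe (limma, adjusted p = 0.00293). Gpc6, a glypican gene, gave 0.37, 0.53, 0.41 and 0.34 over 4 probes, which ran from -0.13 to 0.94. The lower one, Zic5, a zinc finger transcription factor gene, had 1 probe, which was never well above background for the sample. It gave -1.86 and -1.83 on slide 1 and -0.59 and -0.60 on slide 2 (adjusted p = 0.0111), which is no estimate of size, and with normexp background correction it missed the threshold at -0.09 (limma, adjusted p = 0.212).

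In the granzyme and mast cell protease cluster, 1 of 11 measured genes (9.09%) was higher and 2 (18.2%) lower, against 27.0% and 8.51%, with 1 probe each and a median of 0.15. Without replicate 1 there were 2 higher and 0 lower, without replicate 2 or 3 there was 1 of each, and without replicate 4 there were 1 higher and 0 lower and the median was 0.09. Gzmn gave 0.50, 0.45, 0.72 and 0.39 (limma, adjusted p = 0.00397). Gzme and Gzmg, close relatives of it, gave means of -0.29 ± 0.17 and -0.25 ± 0.16 (limma, adjusted p = 0.03 and 0.0471), near the size limit. Gzme missed the threshold without replicates 1, 2 and 4, at -0.28, -0.23 and -0.30 (adjusted p = 0.0934, 0.105 and 0.0757), and Gzmg without replicates 1, 3 and 4, at -0.25, -0.19 and -0.25 (limma, adjusted p = 0.114, 0.151 and 0.119). Both also missed it after a correction for probe GC content, where Gzmg lay at -0.06 (adjusted p = 0.606). Members of this family are similar in sequence, and a probe may bind a relative, so their single values are uncertain.

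The ribonuclease A family had the highest median of the 9 lists. Of its 8 measured genes 5 (62.5%) were higher and 1 (12.5%) lower, against 27.0% and 8.51%, with a median of 0.52, against 0.12 for all 705 genes. Over 16 alternative settings 4 or 5 were higher, at most 1 was lower (0 without replicate 1 or 2) and the median lay between 0.39 and 0.56. Rnase6 gave 0.53, 0.59, 0.56 and 0.61 with all 3 probes above 0. Ear11, an eosinophil-associated ribonuclease gene, gave 0.48, 0.86, 0.65 and 0.52 over 1 probe. Rnase4 and Ang, given above, belong to this family as well. Of the 8 genes 7 have 1 probe, and family members resemble each other, so the same limit holds as for the granzymes. Their 5-Mb window, from 50 Mb, was among the 3 lowest of the chromosome.

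Of 26 neural genes 8 (30.8%) were higher, near the share of the 705 genes, and 3 (11.5%) lower, with a median of 0.17. Without replicate 4 there were 5 lower, and with slide means as 2 samples 5 higher. Pcdh8, a protocadherin gene, was the lowest gene with a bright probe among the lists, at -0.92, -1.09, -0.87 and -1.09 (limma, adjusted p = 0.000712). Slitrk5, a synaptic membrane protein gene, gave 0.83, 1.03, 0.80 and 0.82 (limma, adjusted p = 0.000883). Both rest on 1 probe. Zic5, described above, is the third.

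Of 31 measured genes listed as very long 7 (22.6%) were higher and 1 (3.23%) lower, against 27.0% and 8.51% of the 705. Their means ran from -0.42 to 0.51, with a median of 0.17. With slide means as 2 samples 3 were higher, and without replicate 1 or 3 there were 0 lower. Pcca, which encodes a subunit of the mitochondrial propionyl-CoA carboxylase, gave 0.48, 0.52, 0.20 and 0.50 with all 3 probes above 0. Kctd12, an auxiliary subunit gene of GABA-B receptors and the lower one, had 1 probe at -0.67, -0.13, -0.62 and -0.24 (limma, adjusted p = 0.0241). Kctd12 was the only listed gene with 1 probe, and its place among very long genes was not checked. It is thus no example of a lower long gene. Kctd12 missed the threshold without replicate 1 or 3, at -0.33 and -0.35 (limma, adjusted p = 0.0809 and 0.0834).

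Olfactory receptor genes were called higher in 5 of 18 (27.8%), near the 27.0% of all 705 genes, and lower in 0, against 8.51%. Their median was 0.23, and 17 of 18 means were above 0, against 67% of the 705. In 16 alternative settings 3 to 8 were higher and 0 lower, with 3 higher without replicate 3 and with slide means as 2 samples. Olfr749 gave 0.58, 0.64, 0.67 and 0.91, Olfr732 0.59, 0.63, 0.57 and 0.47, and Olfr741 0.56, 0.49, 0.44 and 0.48, each over 1 probe. These 3 genes were above the pool on every array. Receptor genes of this family are similar in sequence, and their single values are uncertain as well.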

How the data were processed

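The authors deposited 1 scanner file per array, with spot intensity values. Per the file headers, Feature Extraction 10.10.1.1 subtracted background, removed spatial trends, normalised the dyes linearly and set surrogates for dim spots. Per the labels' protocols, DNA came from FFPE sections (Qiagen kit), and 250 ng was labelled (Enzo kit). The deposited log10 ratio column served only as a check, and a deposited table of log2 values as an alternative: its columns, with medians of -0.04, 0.03, 0.05 and 0.01, correlated with the same array's scanner ratios at 0.91 to 0.92, which set scale and direction, while its normalisation and centring stay unknown. Probe positions and gene names are those of the array design (mm9). Of the 705 gene names 490 are symbols and 58 synonyms in the RefSeq table of GRCm38, used for names only.

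The measure used here is log2 of processed Cy5 over Cy3. Controls and flagged outlier spots (3 to 5 chromosome 14 spots per array) were left out, replicate spots were averaged, and the autosomal median was subtracted per array. Medians, windows, probes and gene means were tested against 0 over all autosomes with limma 3.58.1 (R 4.3.3, lmFit and eBayes, Benjamini-Hochberg adjustment). Probes and genes counted as called with an adjusted p under 0.05 and a mean at least 0.25 from 0, windows and chromosomes without a size limit. The steps were tested on simulated data. Slides were read from the headers, with replicates 1 and 2 on one and 3 and 4 on the other.

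Named were Ripk3 and Rb1, the 8 highest and 8 lowest called genes (3 or more probes, all arrays of 1 sign, 1 per Mb, only 5 low ones found), up to 3 members past the threshold of each gene list, the 3 highest and lowest windows and the 4 highest and lowest bright probes. Other genes, the 2-Mb windows singled out and the second Clu and Ttc5 probes were chosen after their values were seen. Chromosome 14 and the lists were chosen with earlier results of these data known. Of a vomeronasal receptor list no name occurred, and it has no result.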

Additional observations from a re-analysis of the deposited data

Results flagged for a closer look

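Among 63 quantities with 4 arrays each, 3 genes had 1 array that stood apart from the other 3 by more than Dixon's limit, and chance would give about 1 in 20. The gap's share of the whole range was 0.869 for Dnase1l3, where replicate 4 lay at 0.27 and the others at 0.36 to 0.37. It was 0.86 for Pcca, where replicate 3 lay at 0.20 and the others at 0.48 to 0.52. It was 0.843 for Slitrk5, where replicate 2 lay at 1.03 and the others at 0.80 to 0.83. Each of these arrays was on the same side of 0 as the others.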

How the results depend on the processing

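The chromosome 14 median stayed between 0.09 and 0.14, and its difference from the other autosomes between 0.10 and 0.15, over 19 alternatives each, and both passed the threshold wherever a test was run (highest limma adjusted p 0.000115 and 1.54e-05, both without replicate 3). Leaving out 1 replicate gave 0.119 to 0.125 and 0.124 to 0.130, distal minus proximal -0.01 to -0.0021, 20 to 23 windows called (18 with arrays centred on the mode), 520 to 595 probes (760 with all arrays) and 198 to 206 genes (250). The count of windows off the chromosome median, 4, ran from 2 (without replicate 2) to 7 (without replicate 4). It was 1 after a lowess on probe GC. With 2-Mb windows 38 were called and 16 off the median, and with 10-Mb windows 13 and 1, out of other numbers of windows. Distal minus proximal moved to -0.0298 after a lowess on local probe density and to -0.0226 with means in place of medians. A size limit of 0.5 left 358 probes and 90 genes, and at least 3 probes a gene left 51 genes, by construction. Ripk3, never called, took the other sign at 0.0507 after the lowess on regional GC, chosen after seeing the data. Where no cause is given, the cause was not tested. Of 55 named genes, probes and windows, 37 kept sign and side throughout. Over 839 values 62 lost a call and 8 gained one. No paired analysis was possible because there is 1 group. Signal over background limits the 12 of 37 named genes that hold a probe not well above background on every array, and no probe of Zic5 or Exoc5 was so throughout. Background correction with normexp moved 17 of the 37 gene means toward 0 by over 1.5 times.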
